A study of Homo sapiens with 3 samples.

Results

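The genes described here encode subunits of condensin and cohesin, the ring-shaped protein complexes that shape chromosomes and hold sister chromatids together. They are SMC2 and SMC4, the ATPase pair shared by both condensins, NCAPD2, NCAPG and NCAPH of condensin I, NCAPD3, NCAPG2 and NCAPH2 of condensin II, and SMC1A and SMC3, the ATPase pair of cohesin. Members were taken by their symbol in the gene name column of the arrays, and all 10 were present, with 17 probes, out of 27274 gene names. A fold change could be given for 9 of the 10 genes. NCAPH, the kleisin of condensin I, was not well above background on any array.

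Expression was measured in HepG2 cells, an established human hepatocellular carcinoma line with wild-type p53, grown in medium with fetal bovine serum. Control cells received no etoposide (0 μM, labelled untreated). Other cells received 10 μM etoposide (the low dose) or 100 μM (the high dose), and total RNA of each was taken at 30 h. Etoposide traps topoisomerase II on DNA and so causes double-strand breaks, and the study set the doses side by side to compare senescent with apoptotic cells. Each condition was a single Cy3-labelled sample on 1 Agilent 1-color array, and the 3 arrays lay on 1 slide.

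Condensin compacts chromatin into mitotic chromosomes. Condensin II is nuclear throughout the cell cycle, whereas condensin I reaches the chromosomes after the nuclear envelope breaks down. Cohesin is loaded before DNA replication, holds sister chromatids together until anaphase, and also folds interphase chromatin into loops and takes part in the repair of double-strand breaks. In both complexes a pair of SMC ATPases is closed by a kleisin subunit, to which proteins of the HEAT repeat type bind. Many genes whose transcripts peak in G2 and mitosis carry the letters TTTGAA, or TTTAAA, near the start site, a promoter element named the cell cycle genes homology region.

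Promoter sequences of members are shown because the condensin genes differed from control in the same direction at the high dose. They are RefSeq sequences (GRCh38.p14), 5′ to 3′ in the direction of the gene, from 160 bases before the start site through the first 10 bases of the transcript, and capitals mark TTTGAA or its other strand, TTCAAA. Where a gene had several windows, the first whose shown stretch held these letters was taken, so the windows were picked for the match. The SMC1A window is the one listed first for that gene and holds no match. The E2F letters given below for SMC1A lie in a window of that gene that is not shown.
SMC2 promoter (chr9:104094149-104094318, + strand): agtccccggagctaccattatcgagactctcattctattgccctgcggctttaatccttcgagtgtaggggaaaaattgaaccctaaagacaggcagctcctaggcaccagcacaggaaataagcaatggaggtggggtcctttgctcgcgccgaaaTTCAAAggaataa
SMC4 promoter (chr3:160399490-160399659, + strand): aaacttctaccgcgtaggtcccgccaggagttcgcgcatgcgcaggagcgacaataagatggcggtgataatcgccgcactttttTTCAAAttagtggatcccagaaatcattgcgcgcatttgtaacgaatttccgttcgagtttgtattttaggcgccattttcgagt
NCAPD2 promoter (chr12:6493942-6494111, + strand): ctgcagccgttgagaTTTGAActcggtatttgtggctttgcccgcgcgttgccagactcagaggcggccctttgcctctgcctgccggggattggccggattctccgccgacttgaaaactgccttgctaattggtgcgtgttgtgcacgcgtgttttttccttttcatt
NCAPD3 promoter (chr11:134223958-134224127, - strand): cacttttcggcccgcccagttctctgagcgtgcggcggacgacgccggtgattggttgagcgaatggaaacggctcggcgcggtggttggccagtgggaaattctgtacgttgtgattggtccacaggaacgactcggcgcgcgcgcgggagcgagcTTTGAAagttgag
NCAPG promoter (chr4:17810819-17810988, + strand): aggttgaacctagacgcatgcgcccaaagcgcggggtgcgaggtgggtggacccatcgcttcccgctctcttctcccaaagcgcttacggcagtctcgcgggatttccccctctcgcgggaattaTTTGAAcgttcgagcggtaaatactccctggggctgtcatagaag
SMC3 promoter (chr10:110567535-110567704, + strand): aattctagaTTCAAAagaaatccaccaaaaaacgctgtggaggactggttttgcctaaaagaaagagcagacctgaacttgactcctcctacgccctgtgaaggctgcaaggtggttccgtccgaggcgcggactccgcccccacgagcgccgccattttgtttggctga
SMC1A promoter (chrX:53422719-53422888, - strand): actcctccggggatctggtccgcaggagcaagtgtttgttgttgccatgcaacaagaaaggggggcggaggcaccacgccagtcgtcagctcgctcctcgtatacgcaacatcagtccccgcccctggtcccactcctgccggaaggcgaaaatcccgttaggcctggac

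TTTGAA stood in at least 1 promoter window of 7 of the 9 members that had one, where a window ran from 250 bases before to 50 bases after a start site and both strands were read. Over all genes in that table, 18.2% of 27305 held these letters, and 15.2% of 35116 windows did. In NCAPD3 the match began 3 bases before the start site on the strand of the gene, and in SMC2 it began 3 bases before it on the opposite strand. It began 35 bases before the start site in NCAPG, 75 in SMC4, 145 in NCAPD2 and 151 in SMC3, and at base 36 of the transcript in NCAPG2. TTTAAA was found in NCAPH only, in 1 of 13 member windows, against 12.2% of all windows. CCAAT was found in 3 of 13 member windows, those of NCAPD2 (4 matches), NCAPD3 (2) and NCAPH (1), against 34.6% of all windows. Letters of the E2F type (TTTCCCGC, TTTGGCGC or TTTCGCGC) were found in 2 of 13 member windows, of NCAPD3 and SMC1A, against 2.74% of all windows. No match of one motif shared bases with a match of another. These matches describe letters in a window and are not measurements of binding.

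Signals are given below as deposited, and the fold changes were taken after each array was scaled to its 75th percentile, with values of 514 (control), 536 (low dose) and 432 (high dose). A gene was read from its brightest probe. The error of a fold change is the standard deviation between spots of repeated probes of similar signal (spot SD), which covers 1 array and not the spread between cultures or RNA preparations. With 1 array per condition no test between conditions was possible, and every count below describes these 3 arrays. Between 19836 and 20150 of 34127 probes were well above background on an array, no spot was saturated, and no outlier spot fell on a member.

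At the high dose, 9 of the 9 condensin and cohesin genes measured lay below control, and 6 of them, all condensin subunits, lay more than 2-fold below it. Over all genes, 3.68% of 16771 were lower by more than 2-fold. The median log2 fold change of the 9 genes was -1.72 (3.29-fold lower), beside 0.10 over all genes. Each of the 9 was below control by more than 2 spot SD, a weaker bar for which the share of all genes was not counted. The 7 condensin genes had a median of -1.81 and the 2 cohesin genes of -0.66. With normexp background correction the median of the 9 was -1.001 and 5 genes passed 2-fold, NCAPG2 being the one lost.

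**Figure D1:**
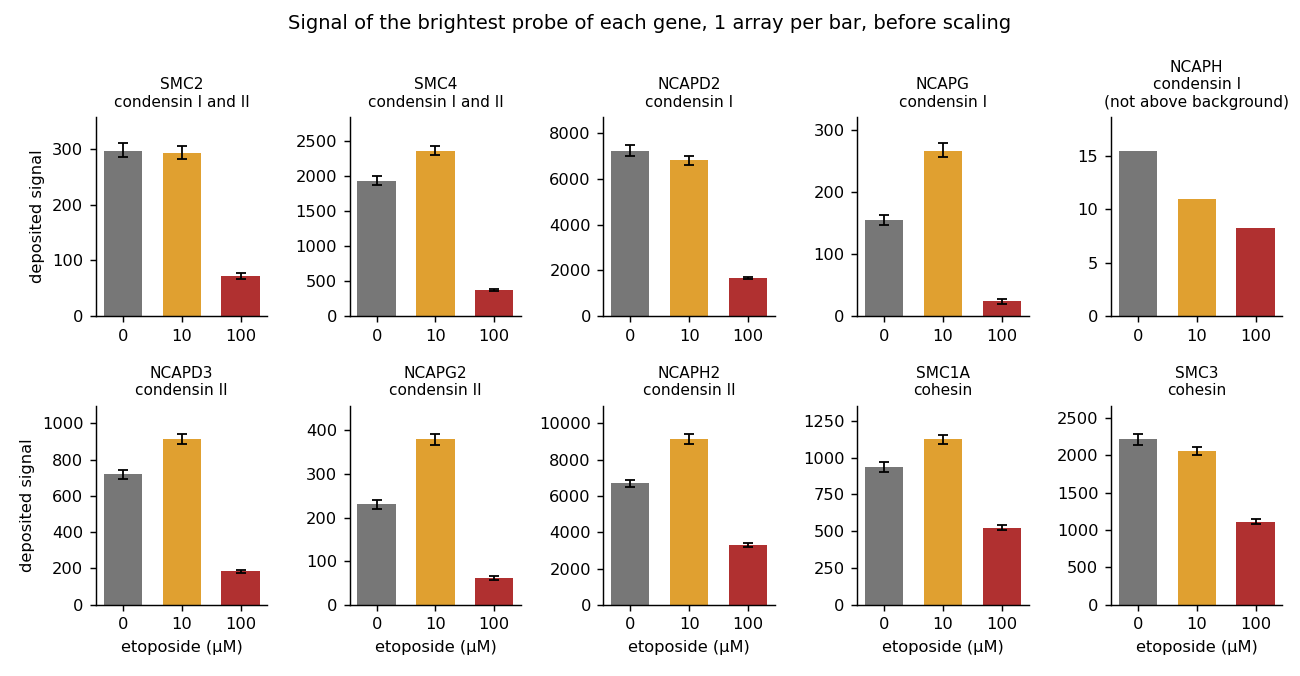
Deposited signal, before scaling, of the brightest probe of each of the 10 genes on the 3 arrays (0, 10 and 100 μM etoposide, 1 bar per array, vertical axis from 0). Error bars are 1 spot SD. In the 9 genes well above background the bar at 100 μM is the lowest, as for SMC4 at 372 beside 1932 in control cells. NCAPH was not well above background.

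SMC2 and SMC4 form the motor shared by both condensins. SMC4 gave signals of 1932, 2369 and 372 in control, low-dose and high-dose cells. The low dose was thus the highest and the high dose by far the lowest, with log2 fold changes over control of 0.23 ± 0.06 (10 μM) and -2.13 ± 0.08 (100 μM, 4.37-fold lower). A further SMC4 probe, at the 3′ side of the first (chr3:161634275-161634334 on hg18, against chr3:161614900-161614959), gave 943, 1383 and 193 in the same order of arrays. Its log2 fold changes were 0.49 and -2.04, so both probes placed the high dose more than 4-fold below control. The SMC4 gene also contains MIR15B and MIR16-2 in the RefSeq table, which these probes do not measure.

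SMC2 gave 297 in control cells, 293 at 10 μM and 71.3 at 100 μM (probe at chr9:105943445-105943504, hg18). Control and low dose differed by less than 1 spot SD (log2 -0.08 ± 0.09), whereas the high dose was 3.50-fold lower (log2 -1.81 ± 0.12). The other SMC2 probe gave 106.9, 132 and 28.1, with log2 fold changes of 0.24 ± 0.12 and -1.68 ± 0.25. The probes thus shared the direction at the high dose and not at the low dose.

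Among the condensin I subunits, NCAPG, a HEAT repeat subunit, gave 155 in control cells, 267 at 10 μM and 23.5 at 100 μM (chr4:17455524-17455583, hg18). The high dose lay 5.53-fold below control (log2 -2.47 ± 0.25) and the low dose 1.65-fold above it (log2 0.72 ± 0.10). The signal at the high dose was near the lowest that counted as well above background there, 21.6, and the log2 fold change was -1.001 after normexp correction.

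NCAPD2, the other HEAT repeat subunit of condensin I, gave 7250.1 in control cells, 6817 at 10 μM and 1657 at 100 μM (chr12:6511303-6511362, hg18). The high dose was 3.68-fold below control (log2 -1.88 ± 0.06), and the low dose was at -0.15 ± 0.06. A dimmer NCAPD2 probe (1649, 1828 and 467) gave -1.57 ± 0.07 at the high dose and 0.09 ± 0.06 at the low dose. NCAPH gave 15.5, 10.98 and 8.25, none of them well above background, so no fold change is given for it.

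The condensin II subunits NCAPD3 and NCAPG2 had profiles of one shape, highest at the low dose and lowest at the high dose. NCAPD3, a HEAT repeat subunit, gave 719, 911 and 184 in control, low-dose and high-dose cells (chr11:133527838-133527897, hg18), with log2 fold changes of 0.28 ± 0.07 and -1.72 ± 0.08. NCAPG2, the other HEAT repeat subunit, gave 231, 379 and 60.7 (chr7:158129745-158129804, hg18), with 0.66 ± 0.08 and -1.68 ± 0.14. The high dose was therefore 3.29-fold below control for NCAPD3 and 3.19-fold below it for NCAPG2. With normexp correction NCAPG2 was at -0.88 and no longer past 2-fold.

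NCAPH2, the kleisin of condensin II, lay below control by less than 2-fold at the high dose. Its brightest probe gave 6688 in control cells, 9119 at 10 μM and 3278 at 100 μM (chr22:49308699-49308758, hg18), or log2 fold changes of 0.39 ± 0.06 and -0.78 ± 0.06 (1.72-fold lower). Over the scalings tried, the value at the high dose ran from -1.07 to -0.72, which crosses 2-fold. The 3 NCAPH2 probes did not share a direction. A probe overlapping the first gave 6427, 9236 and 3216, with log2 -0.75 at the high dose, but the probe for transcript NM_014551 (chr22:49304988-49305047, hg18) gave 133, 241 and 137. That probe was above control at both doses, at 0.79 ± 0.10 and 0.29 ± 0.11. The second value rests largely on the scaling, since the deposited signals of 133 and 137 were close. NCAPH2 overlaps SCO2 in the RefSeq table.

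Both cohesin ATPases were lowest at the high dose and stayed within 2-fold of control. SMC3 gave 2214 in control cells, 2059 at 10 μM and 1114 at 100 μM (chr10:112352641-112352700, hg18), with log2 fold changes of -0.17 ± 0.06 and -0.74 ± 0.07 (1.67-fold lower). SMC1A gave 934, 1124 and 525 (chrX:53443272-53443331, hg18), with 0.21 ± 0.07 and -0.58 ± 0.07 (1.497-fold lower). The other SMC1A probes gave -0.67 ± 0.14 and -0.23 ± 0.19 at the high dose. The values of SMC3 ran from -1.03 to -0.68 over the scalings tried, which crosses 2-fold, and those of SMC1A from -0.87 to -0.52.

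**Figure D2:**
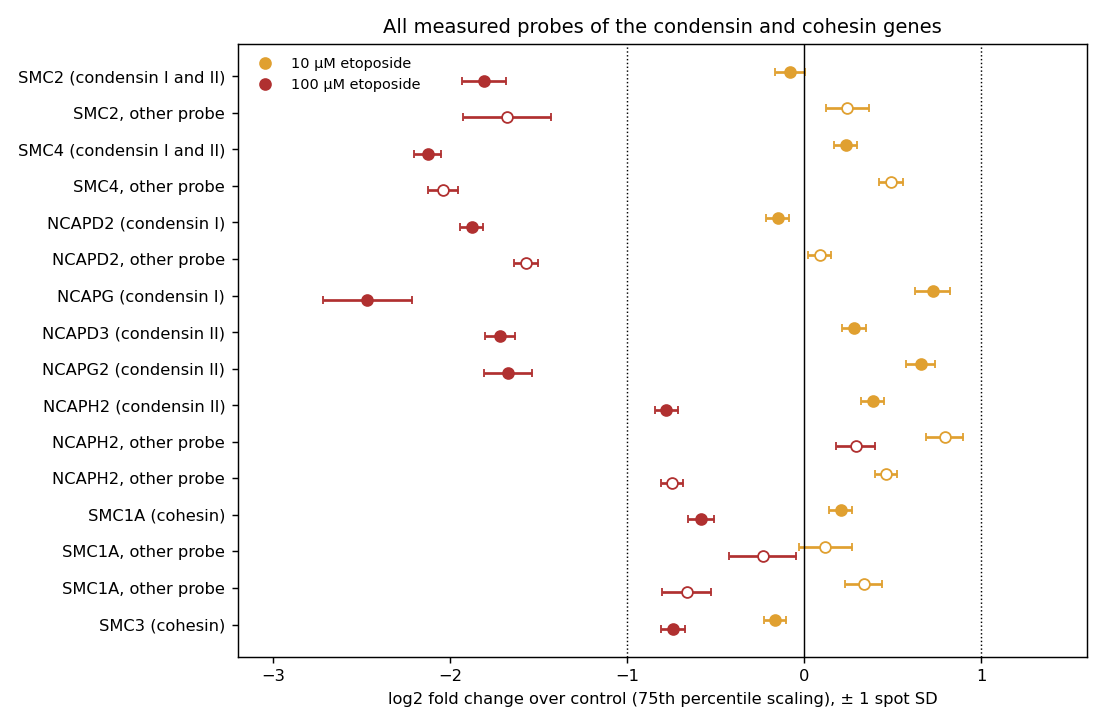
Log2 fold change over control of the 16 probes well above background, at 10 μM (yellow) and 100 μM etoposide (red). Filled circles are the brightest probe of a gene, open circles its other probes, bars 1 spot SD, and dotted lines mark 2-fold. At 100 μM, 9 of 12 condensin probes and none of the 4 cohesin probes lie beyond 2-fold below control, and 1 NCAPH2 probe lies above 0.

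At the low dose no member passed 2-fold in either direction. Over all genes, 3.39% of 16659 were higher by more than 2-fold and 1.58% were lower. The median log2 fold change of the 9 genes was 0.23, beside -0.04 over all genes, with NCAPG (0.72), NCAPG2 (0.66) and NCAPH2 (0.39) at the upper end. Of the 9 genes, 6 were above control by more than 2 spot SD, namely these 3 with SMC4, NCAPD3 and SMC1A. NCAPD2 and SMC3 were below it by more than 2 spot SD, and SMC2 was within 1. The share of all genes past 2 spot SD was not counted, so these counts have no background beside them. The member values are those of brightest probes, and the other probes of NCAPD2 (0.09 ± 0.06) and SMC2 (0.24 ± 0.12) lay above control. The 3 condensin II genes were all above control. The median of the cohesin pair was 0.02, and it took the other sign, -0.002, when arrays were scaled to their median.

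**Figure D3:**
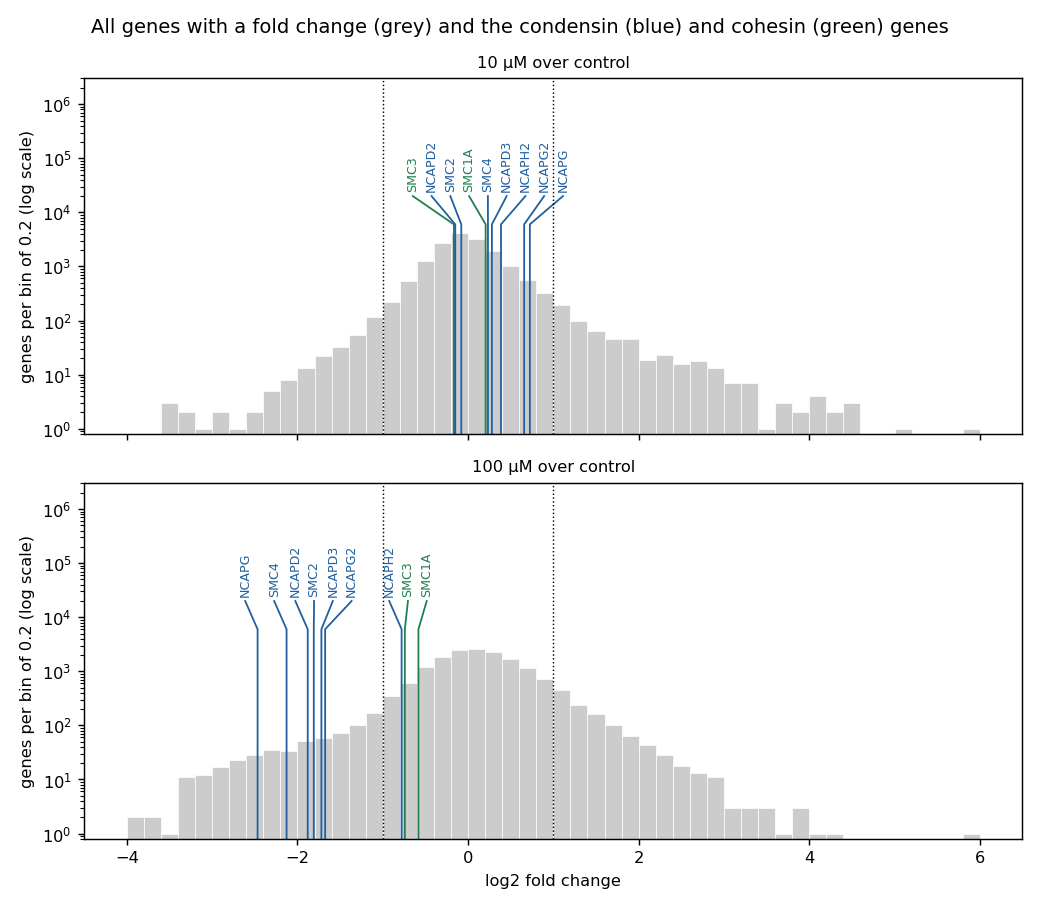
Number of genes per bin of 0.2 in log2 fold change over control (log vertical axis), at 10 μM and 100 μM etoposide, with the 9 measured members marked (condensin blue, cohesin green). Dotted lines mark 2-fold. At 100 μM, 6 condensin genes lie in the lower tail between -2.47 and -1.68, and NCAPH2, SMC3 and SMC1A lie between -0.78 and -0.58.

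Set directly against each other, the low dose was above the high dose for 9 of 9 genes and by more than 2-fold for 7 of 9, which were the 7 condensin genes measured. Over all genes, 3.66% of 16685 were higher at the low dose by more than 2-fold. The median difference of the 9 genes was 1.73 on the log2 scale (3.32-fold), beside -0.11 over all genes. The ratio was 9.14-fold for NCAPG, 5.14-fold for SMC4, 5.04-fold for NCAPG2, 3.998-fold for NCAPD3 and 3.32-fold for both NCAPD2 and SMC2. It was 2.24-fold for NCAPH2, 1.73-fold for SMC1A and 1.49-fold for SMC3. With normexp correction the log2 ratios of NCAPG (1.54), NCAPG2 (1.48) and SMC2 (1.05) were lower by more than a factor of 1.5 in fold. NCAPG was then below SMC4 (2.17), and NCAPG2 stayed below it. This comparison shares both of its arrays with the comparisons above.

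The remaining subunits of cohesin in dividing cells lay near its ATPases at the high dose. RAD21, the kleisin, gave 6483, 5622 and 3062 (log2 -0.83 ± 0.06 at the high dose). STAG2, an alternative subunit that binds it, gave 848, 768 and 378 (-0.92 ± 0.08). With median scaling RAD21 (-1.12) and STAG2 (-1.21) were past 2-fold. STAG1, the paralog of STAG2, gave 51.3 in control cells and was not well above background at either dose. Its dim signal of 24.4 at 10 μM gave a ratio 2.19-fold below control, which is not a bound. At 100 μM the signal was raised to the lowest that counted as well above background, which gave at least 1.99-fold lower. With normexp correction the log2 values of STAG1 were -0.30 (10 μM) and -0.07 (100 μM), both within 2-fold. Among subunits known from meiosis, REC8, the meiotic kleisin, gave 347, 575 and 925 and was the only gene of these lists more than 2-fold above control at the high dose (log2 1.67 ± 0.08, 3.17-fold). STAG3 gave 132, 146 and 135, and SMC1B and RAD21L1 were not well above background on any array.

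The proteins that load and release cohesin passed 2-fold at the high dose in 0 of 6 cases (median log2 -0.36), while 6 of 7 genes for establishing, protecting or cutting cohesion were lower by more than 2-fold (median -2.22). NIPBL, the loader, was at -0.36 ± 0.08, WAPL, the release factor, at -0.36 ± 0.06, and PDS5A and PDS5B, which regulate release, at -0.51 ± 0.09 and -0.90 ± 0.18. PDS5B was past 2-fold under other scalings (-1.19 with median scaling). The deacetylase HDAC8 was at -0.07 ± 0.10. MAU2, the partner of NIPBL, was at 0.29 ± 0.07 and took the other sign, -0.002, when arrays were scaled to their median. The 3 probes of PDS5A disagreed in sign (-1.06, -0.51 and 0.28).

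SGO1, which guards centromeric cohesion, gave 236, 268 and 34.9 (-2.51 ± 0.22), and SGO2 gave 187, 177 and 31.6 (-2.31 ± 0.23). With normexp correction SGO1 was at -1.28 and SGO2 at -1.002. PTTG1, the separase inhibitor securin, gave 19334, 15839 and 3356 (-2.28 ± 0.06). The acetyltransferases of cohesin differed in value. ESCO2 gave 144, 317 and 28.8, which was 2.11-fold above control at 10 μM and 4.21-fold below it at 100 μM. With normexp correction both of its values were within 2-fold (0.82 and -0.87). ESCO1 gave 144, 108.7 and 97.2 and lay within 2-fold at both doses. ESPL1, or separase, was at -2.05 ± 0.08 at the high dose.

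Of 5 measured genes of the SMC5/6 complex, another SMC complex, which acts in DNA repair, 0 passed 2-fold at the high dose (median -0.20), and the values ran from -0.69 for NSMCE4A to 0.25 for NSMCE3. SMC6, an ATPase of the complex, gave 757, 1084 and 554 (-0.20 ± 0.02). NSMCE1 was at 0.05 ± 0.06 and NSMCE2, a SUMO ligase, at -0.43 ± 0.07. The value of NSMCE3 took the other sign, -0.04, when arrays were scaled to their median. SMC5 was not well above background. The 4 genes listed as partners of mitotic chromosomes were all lower by more than 2-fold at the high dose (median -2.38). KIF4A, a chromokinesin that binds condensin I, gave 810.2, 864 and 53.7 (log2 -3.66 ± 0.14, 12.7-fold lower), the lowest value among the 27 listed genes measured, and was at -2.48 with normexp correction. TOP2A, a target of etoposide, gave 803, 962 and 117 (-2.53 ± 0.03), MKI67 was at -2.22 ± 0.10 and KIF22 at -2.21 ± 0.07. Of the 3 KIF22 probes, 1 was above control (0.34).

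Markers of the cell line and of other cell types were read on the same arrays. All 10 hepatocyte markers were well above background on every array, with summed signals of 414249, 442195 and 453569.5, although HNF4A was dim (50.7, 30.4 and 53.7). The leukocyte markers PTPRC, CD3E and CD14 were also above background on every array. PTPRC gave 257, 131 and 288, CD3E gave 46.8, 34.6 and 52.9, and CD14 gave 521, 1184 and 1847. Of 4 endothelial markers 2 were above background on every array, and KDR on none. The signals of all 4 summed to 535, 369 and 359.8. Of 4 fibroblast or stellate markers none was above background on every array, with COL1A1, COL1A2 and DCN on no array. Each of these 3 leukocyte markers was thus highest at 100 μM, where the condensin signals were lowest, and their part in the results was not tested. Fewer cells that express a gene and less RNA of it per cell cannot be told apart in such bulk samples.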

How the data were processed

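RNA of 3 HepG2 samples (0, 10 and 100 μM etoposide, 30 h) was amplified, labelled with Cy3 and hybridized to Agilent 1-color arrays of 60-base probes. The authors deposited, for each array, the intensity of every spot from Feature Extraction (version 10.7.3.1), background-subtracted and detrended within the array, with positions on hg18, and a series table whose intensity values were equal for all 44495 spots. Labels call the control untreated, while a table of the paper names DMSO for it.

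Outlier spots were left out, log2 values were averaged per probe, and the 75th percentile over non-control probes, each counted once, was subtracted. That way of counting was known to give factors close to the paper's own fold changes, so it is not independent of them. A gene was read from its brightest probe. Fold changes were given only where the brighter of both conditions was well above background by Feature Extraction, and a dimmer value was not allowed below the lowest signal so marked on its array (19.5, 22.7 and 21.6). A call was a change of more than 2-fold. Spot SDs came from the 50 repeated probes (10 spots each) nearest in signal. The number of arrays, not read depth, limits precision.

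The members and gene lists were chosen with earlier results of these data known. Named genes were all members, the 3 highest and 3 lowest genes of each other list at 100 μM (or the whole list where 6 or fewer were measured), and the 5 genes nearest in profile to the condensin median, of which 1 is not reported here, nor is 1 leukocyte marker. The scripts were tested on simulated data for 100 μM over control over 17309 genes, where 100 of 100 raised and 92 of 100 lowered genes were called. Python 3.11.15, pandas 2.3.3, numpy 2.4.6, R 4.3.3 and limma 3.58.1 (normexp, offset 50) were used. In all, 13 other settings were tried, besides thresholds of 1.5-fold and 3-fold.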

Additional observations from a re-analysis of the deposited data

How the results depend on the processing

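Over the 13 other settings, 9 of 9 genes stayed below control at the high dose and none passed 2-fold at the low dose. The number lower by more than 2-fold at the high dose ran from 5 (normexp) to 8 (median scaling), beside 6. At a threshold of 1.5-fold, 2 genes were higher at the low dose, beside 0, and the share of all genes past 1.5-fold was not counted. The median log2 fold change at the high dose was -1.97 with no scaling, -2.01 with median scaling, -1.84 with quantile normalization, -1.89 with spike-in scaling and -1.001 with normexp correction, beside -1.72. The median of the low over the high dose was 2.04, 1.996, 1.87, 1.96 and 1.48 under the same settings and 1.83 with the mean of all probes of a gene, beside 1.73. The median at the low dose was 0.17 with normexp correction, beside 0.23. Of 1896 values of single genes and lists under the alternatives, 1451 differed by less than 1 spot SD, 445 by more, and 0 reversed among called values. SMC2 at the low dose was at 0.08 with the mean of its probes.

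Scaling shifted the median of all genes at the high dose, from 0.10 to -0.15 with no scaling and -0.19 with median scaling. Of all calls there, 65.0% were higher, beside 37.2% with no scaling, 33.2% with median scaling, 49.8% with quantile normalization, 45.1% with spike-in scaling, 47.6% with normexp correction and 75.6% with no filter on dim probes. The 617 lower calls became 1071 with no scaling, 1181 with median scaling and 1049 with no filter. For the low over the high dose, 48.0% of calls were higher, beside 77.8%, 74.6%, 65.4%, 71.2%, 72.6% and 26.8% under the same 6 settings in that order, and the 611 higher calls became 1002 with no scaling, 400 with normexp correction and 938 with no filter. At the low dose normexp correction left 253 higher and 81 lower calls, beside 564 and 263, and no filter gave 1250 and 949. The cause of these shifts was not tested.

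No paired analysis was possible because 1 array per dose leaves no replicate numbers to pair. Dim probes limit what can be read, since the spot SD of a log2 value was 0.23 to 0.25 at signals of 20 to 50 and about 0.05 at signals of 300 to 1000.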

Other observations

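Other genes with the condensin profile were sought among 12037 genes with a RefSeq mRNA probe well above background on the 3 arrays. The measure was the distance between pairs of log2 fold changes over control, taken from the median pair of the 7 condensin genes (0.28 at 10 μM and -1.81 at 100 μM). The 4 nearest were C12orf48 (now PARPBP), KIF20B, CDCA7 and DTYMK. C12orf48 gave signals of 635, 801 and 146 in control, low-dose and high-dose cells, or log2 fold changes of 0.27 and -1.87. KIF20B stood at 0.20 and -1.77, CDCA7 at 0.19 and -1.81, and DTYMK at 0.19 and -1.80. In all, 26 genes lay within a distance of 0.3. The likeness rests on 3 arrays.

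The letters TTTGAA were also read against the high dose over all genes that had both a fold change and a promoter window under the same symbol, 9321 in number and members included. Of 1303 genes with the letters in a window, 9.21% were lower by more than 2-fold (median log2 -0.04). Of 8018 genes without them, 3.02% were lower by more than 2-fold (median 0.07). This is a description of these arrays, and the symbols of the array are older than those of the sequence table.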
